A study of Mus musculus with 16 samples.

Results

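The genes described here are known to make, mineralise and resorb bone, such as the bony capsule around the cochlea, or to build the cartilage that comes before it. Which cells of the samples gave their signals was not tested. The set was a list of 35 skeletal genes without the collagens, each represented by the probeset that has a single gene symbol in the platform table and the highest mean signal. Of the 35, 33 were measured, each by 1 probeset, out of 19937 genes named this way and 34760 probesets in all. The other 2, *Spp1* and *Runx2*, had no such probeset in the table used and were not analysed here.

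RNA was measured on 16 Affymetrix MoGene 1.0 arrays, which hold probes for transcripts across the mouse genome. At postnatal day 18 (P18) the whole cochlea was taken from 3 Tg1MDW/1MDW and 3 WT samples. At postnatal day 5 (P5) the organ of Corti (OC), the strip of sensory epithelium along the cochlear duct, was dissected from 5 Tg1MDW/1MDW and 5 WT samples. All mice had the FVB/NCrl background. Tg1MDW/1MDW mice are homozygous for a transgene in which the GFAP promoter drives the miRNA genes *Mir183*, *Mir96* and *Mir182*, and the arrays hold a single founder line of it. The study aimed the GFAP promoter at the supporting cells of the OC. At P18 it saw the transgene's miRNA in these, in Schwann cells and in the spiral limbus, and it names no bone or cartilage cell. At P5 its staining of the tissue gave no clear difference between the genotypes. Groups were taken from the sample titles. Other label fields conflict with the titles in age, tissue and genotype, and give ages of 5.5 and 18.5 days. The titles call the samples of a group biological replicates but do not say whether an array holds 1 animal or a pool. The p-values therefore measure the spread between these samples, which may not be that between animals.

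The otic capsule forms first as cartilage, in which chondrocytes lay down aggrecan, matrilins and link protein, and is then replaced by bone. Osteoblasts, which depend on the transcription factors Runx2 and Sp7, secrete matrix and mineralise it with the help of alkaline phosphatase, and those that become buried in it turn into osteocytes, which make sclerostin. Osteoclasts are large cells fused from precursors of the macrophage lineage, and they dissolve bone with acid pumped by a vacuolar ATPase and digest it with cathepsin K.

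The deposited values are log2 signals, so that a difference of 1 is a doubling. Signals of different probesets have no common scale, and only the same gene is compared between groups. In RNA from whole tissue, fewer cells of a type and less RNA per cell cannot be told apart. The labels' genotypes were borne out by the transgene itself. *Mir182* lay between 7.95 and 7.98 in P18 Tg1MDW/1MDW, against 3.83 to 3.92 in P18 WT, and between 7.77 and 8.64 in P5 Tg1MDW/1MDW, against 4.25 to 5.46 in P5 WT. *Mir96*, *Mir183* and *Prm1*, the sperm protamine gene that lends the construct an element, were likewise higher on every Tg1MDW/1MDW array than on every WT array of the same age. The mature miRNAs that the transgene adds are shown because the genotype comparison is about them. Their sequences are those of RefSeq (GRCm38.p6, minus strand), and capitals mark the seed, the bases that pair first with a target.
mmu-miR-96-5p (chr6:30169506-30169528): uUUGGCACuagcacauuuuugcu
mmu-miR-182-5p (chr6:30165962-30165986): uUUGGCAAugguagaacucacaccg
mmu-miR-183-5p (chr6:30169711-30169732): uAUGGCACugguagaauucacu
No 2 of these seeds are identical. Target sites in the skeletal genes were not analysed here.

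The skeletal genes differed far more between P18-cochlea and the P5-OC than between genotypes. Tissue and age change together in that comparison and cannot be told apart. A gene was called there at an adjusted p under 0.05 and a change of at least 2-fold. In Tg1MDW/1MDW, 16 of the 33 genes were called higher at P18 and 2 lower, where 5.93% of all probesets were called higher and 10.8% lower. In WT, 17 were called higher and 2 lower, against 5.50% and 11.5% of all probesets. The median log2 change of the 33 genes was 1.0 in Tg1MDW/1MDW and 1.08 in WT, and that of all probesets was -0.11 in Tg1MDW/1MDW and -0.06 in WT. The arrays of the 2 genotypes are different samples, and 15 genes were called higher and 2 lower in both. *Hapln1* was called higher in Tg1MDW/1MDW alone, and *Dlx3* and *Dcstamp* in WT alone, but for none of them was the difference between these changes itself called.

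**Figure D1:**
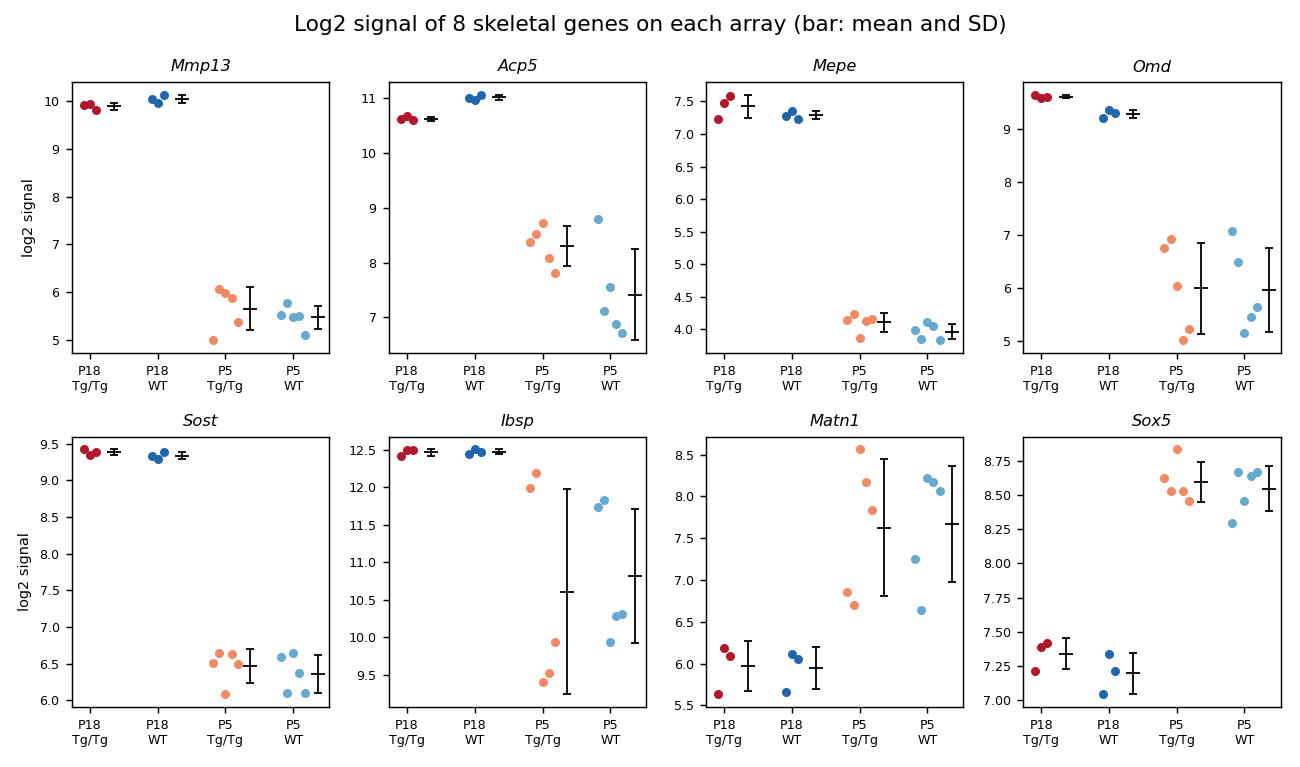
Log2 signal of 8 skeletal genes on each of the 16 arrays. Each point is an array, the groups run P18 Tg1MDW/1MDW (labelled Tg/Tg), P18 WT, P5 Tg1MDW/1MDW and P5 WT, and the black bar beside each group is its mean and SD (n = 3 at P18, n = 5 at P5). *Mmp13*, *Acp5*, *Mepe*, *Omd* and *Sost* are higher on every P18 array than on every P5 array, *Matn1* and *Sox5* are lower on every P18 array, and *Ibsp* spans 9.40 to 12.19 in P5 Tg1MDW/1MDW.

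Of the 6 mineralising bone matrix proteins, 4 were called higher at P18 in both genotypes. *Ibsp* (bone sialoprotein), *Dmp1* (dentin matrix protein) and *Mepe* (matrix extracellular phosphoglycoprotein) belong to a family of acidic phosphoproteins of mineralised matrix whose genes lie in a row on mouse chromosome 5. *Mepe* had 7.23, 7.47 and 7.58 in P18 Tg1MDW/1MDW, against 4.14, 4.24, 3.86, 4.13 and 4.16 in P5 Tg1MDW/1MDW. It had 7.28, 7.35 and 7.23 in P18 WT, against 3.98, 3.85, 4.11, 4.05 and 3.83 in P5 WT. The ages did not overlap, and *Mepe* rose by 3.32 in each genotype (standard error 0.10, limma adjusted p = 9.9e-13 in Tg1MDW/1MDW and 7.5e-13 in WT). Its P5 signals all lie below 4.54, the lowest lower quartile of any array, where background can hold a signal up, so the rise may be understated.

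*Omd*, which encodes osteomodulin, a small proteoglycan of bone that binds hydroxyapatite, had 9.65, 9.58 and 9.61 in P18 Tg1MDW/1MDW, against 6.76, 6.93, 6.04, 5.02 and 5.23 in P5 Tg1MDW/1MDW. Among WT arrays it had 9.20, 9.36 and 9.30 at P18, against 7.08, 6.50, 5.16, 5.46 and 5.65 at P5. Again no P5 array reached a P18 array, and the gain was 3.62 in Tg1MDW/1MDW (standard error 0.44, limma adjusted p = 5.1e-06) and 3.32 in WT (standard error 0.44, limma adjusted p = 1.2e-05). *Dmp1* rose by 2.52 in Tg1MDW/1MDW and 2.20 in WT. *Ibsp* rose by 1.86 in Tg1MDW/1MDW (95% confidence interval 0.55 to 3.17) and 1.65 in WT (0.34 to 2.96). *Ogn*, a related small proteoglycan, was not called in either genotype. *Sparc* (osteonectin) was at 12.86 to 13.20 on all 16 arrays and was not called.

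Of the 3 transcription factors of bone-forming cells, *Sp7* (osterix), which osteoblasts cannot form without, rose by 1.98 in Tg1MDW/1MDW and 2.17 in WT. *Dlx3* had changes of 0.90 in Tg1MDW/1MDW and 1.19 in WT, on either side of the 2-fold limit, with adjusted p-values from limma of 5.8e-06 and 2.7e-07. *Dlx5*, a homeobox gene of early osteoblasts, had 8.67, 8.65 and 8.70 in P18 Tg1MDW/1MDW, against 9.49, 9.48, 8.33, 8.24 and 8.67 in P5 Tg1MDW/1MDW. In WT it had 8.51, 8.60 and 8.67 at P18, against 9.49, 9.78, 8.68, 8.80 and 8.81 at P5. The groups overlapped in Tg1MDW/1MDW and lay just apart in WT, and neither change was called (-0.17, 95% confidence interval -0.80 to 0.47, in Tg1MDW/1MDW, and -0.52, -1.15 to 0.11, in WT). The sign in Tg1MDW/1MDW turned to 0.06 when every array was centred on its median, which adds 0.22 to a P18 minus P5 change in Tg1MDW/1MDW and 0.20 in WT.

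All 3 enzymes and osteocyte products were called higher in both genotypes. *Alpl* (tissue-nonspecific alkaline phosphatase), which frees phosphate for mineral, rose by 2.61 in Tg1MDW/1MDW and 2.7 in WT. *Phex*, a phosphate-regulating endopeptidase of osteoblasts and osteocytes, rose by 2.17 in Tg1MDW/1MDW and 1.85 in WT. *Sost* (sclerostin), a Wnt inhibitor made by mature osteocytes, rose by 2.92 in Tg1MDW/1MDW and 2.98 in WT, with narrow intervals (2.62 to 3.22 and 2.68 to 3.28).

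The matrix metalloprotease gene *Mmp13* (collagenase 3) changed the most of the 33 genes in both genotypes. It is grouped here with the osteoclast genes as a gene of bone resorption, although its product comes mainly from hypertrophic chondrocytes and osteoblasts. It had 9.91, 9.93 and 9.81 in P18 Tg1MDW/1MDW, against 5.0, 6.07, 5.98, 5.88 and 5.38 in P5 Tg1MDW/1MDW. The WT arrays had 10.03, 9.95 and 10.13 at P18, against 5.52, 5.77, 5.48, 5.51 and 5.10 at P5. The P18 arrays all stood far above the P5 arrays. The rise was 4.22 in Tg1MDW/1MDW (standard error 0.20, limma adjusted p = 1.3e-10) and 4.56 in WT (standard error 0.20, limma adjusted p = 4.8e-11), which is 23.5-fold in WT.

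*Acp5* (tartrate-resistant acid phosphatase), the classical histochemical marker of osteoclasts, had 10.62, 10.67 and 10.60 in P18 Tg1MDW/1MDW, against 8.37, 8.53, 8.72, 8.09 and 7.80 in P5 Tg1MDW/1MDW. In WT it had 11.01, 10.98 and 11.07 at P18, against 8.79, 7.12, 7.56, 6.87 and 6.72 at P5. P5 WT replicate 1 stood more than 1 above the other 4 arrays of its group, and both genotypes were still apart between the ages. *Acp5* rose by 2.33 in Tg1MDW/1MDW (standard error 0.34, limma adjusted p = 3.4e-05) and by 3.60 in WT (standard error 0.34, limma adjusted p = 3.0e-07).

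Of the 9 osteoclast genes, 5 were called higher in Tg1MDW/1MDW and 6 in WT. *Atp6v0d2*, the osteoclast subunit of the proton pump that also serves precursor fusion, rose by 2.67 in Tg1MDW/1MDW and 3.31 in WT. *Mmp9* (gelatinase B) rose by 2.43 in Tg1MDW/1MDW and 3.18 in WT, and *Ctsk* (cathepsin K) by 1.22 in Tg1MDW/1MDW and 1.44 in WT. The fusion gene *Dcstamp* was called in WT alone, at 0.72 in Tg1MDW/1MDW and 1.16 in WT. The other fusion gene, *Ocstamp*, the calcitonin receptor gene *Calcr* and the collagen receptor gene *Oscar* were under 2-fold in both, with changes of 0.18 to 0.46 in Tg1MDW/1MDW and 0.69 to 0.88 in WT.

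**Figure D2:**
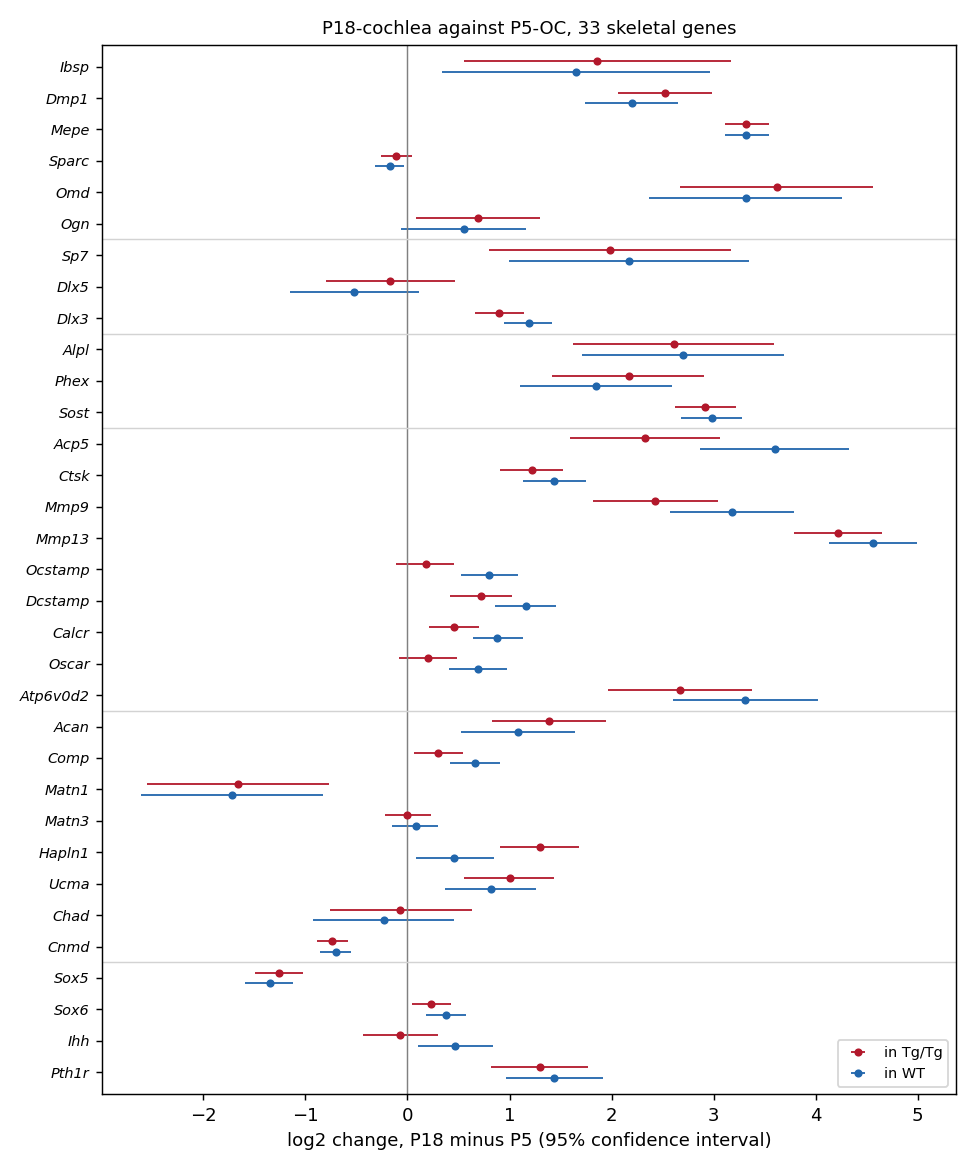
Log2 change of the 33 skeletal genes, P18-cochlea minus P5-OC, in Tg1MDW/1MDW (red, labelled Tg/Tg) and WT (blue). Points are limma estimates, bars are 95% confidence intervals, and grey lines part the groups of genes, from bone matrix proteins at the top to cartilage regulators at the bottom. *Mmp13* lies furthest right at 4.22 in Tg1MDW/1MDW and 4.56 in WT, and *Matn1* furthest left at -1.66 and -1.72.

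The cartilage genes did not move together. Of the 8 cartilage matrix genes, 2 were called higher and 1 lower in Tg1MDW/1MDW, and 1 higher and 1 lower in WT. Their median change was 0.15 in Tg1MDW/1MDW and 0.27 in WT. *Matn1* (matrilin 1), a bridging protein of cartilage matrix, had 5.63, 6.19 and 6.09 in P18 Tg1MDW/1MDW, against 6.86, 6.70, 8.57, 8.17 and 7.84 in P5 Tg1MDW/1MDW. In WT it had 5.66, 6.12 and 6.06 at P18, against 7.25, 6.64, 8.22, 8.17 and 8.06 at P5. The P18 arrays lay below all P5 arrays of the same genotype, and *Matn1* fell by 1.66 in Tg1MDW/1MDW (standard error 0.42, limma adjusted p = 0.0034) and fell by 1.72 in WT (standard error 0.42, limma adjusted p = 0.0027).

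*Cnmd* (chondromodulin), a cartilage glycoprotein that inhibits blood vessel growth, had 11.09, 11.21 and 11.08 in P18 Tg1MDW/1MDW, against 11.85, 11.88, 11.97, 11.81 and 11.84 in P5 Tg1MDW/1MDW. On the WT arrays it had 11.12, 11.14 and 11.10 at P18, against 12.01, 11.82, 11.72, 11.78 and 11.79 at P5. The ages were apart, but the changes of -0.74 in Tg1MDW/1MDW (limma adjusted p = 4.8e-07) and -0.70 in WT (limma adjusted p = 7.6e-07) stayed under 2-fold. Unlike these, *Acan* (aggrecan), the main proteoglycan of cartilage, rose by 1.39 in Tg1MDW/1MDW and 1.08 in WT.

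Among the 4 regulators and growth plate signals, *Sox5*, which works with *Sox6* and *Sox9* to switch on cartilage matrix genes, had 7.21, 7.39 and 7.42 in P18 Tg1MDW/1MDW, against 8.63, 8.53, 8.84, 8.53 and 8.46 in P5 Tg1MDW/1MDW. The WT signals were 7.04, 7.34 and 7.21 at P18, against 8.30, 8.67, 8.46, 8.64 and 8.67 at P5. No array of one age reached the other. *Sox5* fell by 1.26 in Tg1MDW/1MDW (standard error 0.11, limma adjusted p = 1.3e-07) and fell by 1.35 in WT (standard error 0.11, limma adjusted p = 5.0e-08). *Pth1r*, the receptor for parathyroid hormone and its related protein, rose by 1.30 in Tg1MDW/1MDW and 1.44 in WT, while *Sox6* and the hedgehog ligand *Ihh* were not called.

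Other genes of the same systems were listed from general knowledge, with earlier results of these data known. Of 16 further osteoblast and mineral genes measured, 6 were called higher and 1 lower in each genotype. The vitamin D receptor gene *Vdr* rose by 3.42 in WT, the phosphate hormone gene *Fgf23* by 1.67 and *Bmp3* by 2.05, and *Cthrc1* fell by 1.51. Of 18 further genes of osteoclasts and their signals, 3 were called higher in Tg1MDW/1MDW and 4 in WT, and none lower. The 4 in WT were *Tyrobp*, an adaptor of myeloid cells (3.13), *Tnfrsf11b*, the decoy receptor osteoprotegerin (2.47), *Car2*, the carbonic anhydrase that supplies the protons (2.04), and *Slc9b2*, a sodium-proton exchanger (1.44). Of 21 further cartilage genes, 6 were called higher and 1 lower in Tg1MDW/1MDW, and 5 higher and 3 lower in WT. *Prg4* (lubricin), the lubricant of joint surfaces, rose by 4.32 in WT and *Loxl4*, a lysyl oxidase, by 1.63, whereas *Matn4* fell by 1.74 and *Epyc*, a small proteoglycan, fell by 1.12.

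Markers of blood and marrow differed between the ages too. All 6 erythroid markers measured were called higher at P18 in both genotypes, and their mean signal was 10.45 to 10.48 in P18 Tg1MDW/1MDW, 10.65 to 10.72 in P18 WT, 5.88 to 6.43 in P5 Tg1MDW/1MDW and 5.84 to 6.18 in P5 WT. All 10 neutrophil and marrow myeloid markers were called higher, with means of 10.17 to 10.20 in P18 Tg1MDW/1MDW, 10.27 to 10.32 in P18 WT, 4.93 to 5.36 in P5 Tg1MDW/1MDW and 4.74 to 5.02 in P5 WT. Of 9 macrophage markers, 5 were called higher in Tg1MDW/1MDW and 4 in WT. Of 10 supporting cell and cochlear epithelium markers, 1 was called higher and 4 lower in each genotype. The part of these cells in the values of the skeletal genes was not tested.

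The stretches upstream of *Mmp13* and *Mepe* are printed because these are the genes with the largest rise in WT and the largest rise among the acidic matrix proteins. Each run is the 250 bases before the transcription start in RefSeq (GRCm38.p6, plus strand), and capitals mark every match, on either strand, to the core of the RUNX site (TGTGGT), the AP-1 site (TGANTCA) or the TATA box (TATAAA).
Mmp13 (chr9:7272264-7272513): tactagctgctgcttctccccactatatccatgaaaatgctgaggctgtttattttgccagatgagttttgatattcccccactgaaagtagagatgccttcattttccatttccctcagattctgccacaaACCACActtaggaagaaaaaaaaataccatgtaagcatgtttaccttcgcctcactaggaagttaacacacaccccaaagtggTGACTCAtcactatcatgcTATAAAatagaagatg
Mepe (chr5:104325079-104325328): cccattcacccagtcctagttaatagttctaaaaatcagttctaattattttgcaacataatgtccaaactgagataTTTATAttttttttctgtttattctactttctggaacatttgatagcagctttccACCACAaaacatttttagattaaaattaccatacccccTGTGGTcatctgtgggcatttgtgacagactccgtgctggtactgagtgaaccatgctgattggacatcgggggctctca
The *Mmp13* window holds 1 match to each of the 3 motifs, and the *Mepe* window holds 2 RUNX matches and 1 TATA match. Such windows were at hand for 25 of the 33 genes. The RUNX letters occur in 8 of these 25 (*Dmp1*, *Hapln1*, *Matn1*, *Mepe*, *Mmp13*, *Ogn*, *Sox6* and *Ucma*) and in 15.9% of 27025 genes with a window. The AP-1 letters occur in 1 of the 25, that of *Mmp13*, and in 7.82% of all genes, and the TATA letters in 7 and in 14.3%. Among the 12 genes with a window that were called higher in WT, 3 hold the RUNX letters, 1 the AP-1 letters and 4 the TATA letters. A match of letters is a description of the sequence and does not show that a factor binds there.

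The second question was whether the transgene alters these genes. None of the 33 was called between genotypes at either age at an adjusted p under 0.05 from limma with no fold limit, where 0.443% of all probesets were called at P18 and 0.610% at P5. At an unadjusted p under 0.05 there were 4 of the 33 at P18, where 8.77% of all probesets passed, and 6 at P5, where 16.4% did. The precision differed greatly between genes, with half-widths of the 95% confidence interval of 0.17 to 1.47 at P18 and 0.13 to 1.14 at P5. For *Ibsp* the intervals ran from -1.48 to 1.46 at P18 and from -1.35 to 0.92 at P5, so that at P18 a 2-fold difference in either direction was not detectable in this fit, and at P5 the interval left out a 2-fold higher level but not a 2-fold lower one. Fitted on the 6 P18 arrays alone, the *Ibsp* interval at P18 ran from -0.14 to 0.12.

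**Figure D3:**
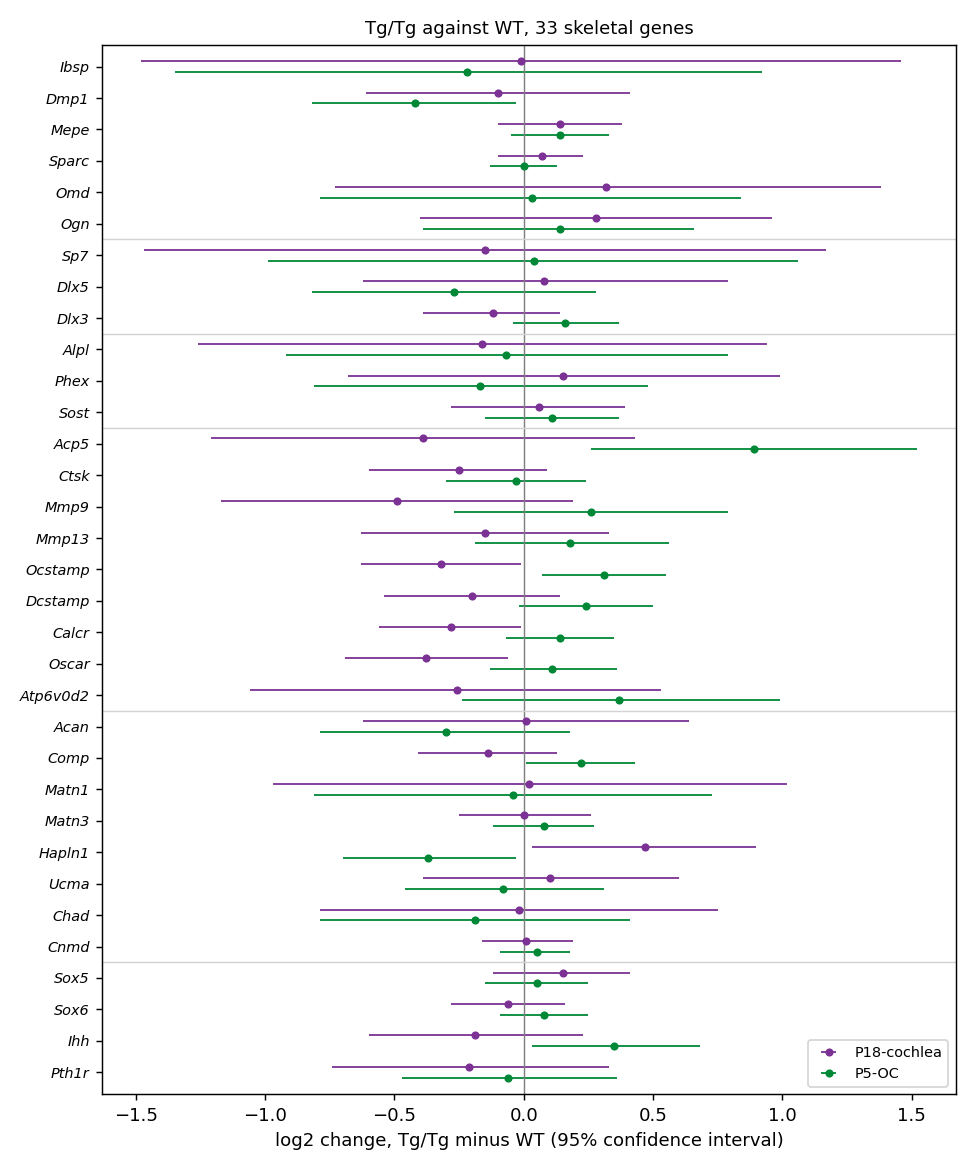
Log2 change of the 33 skeletal genes, Tg1MDW/1MDW minus WT, in P18-cochlea (purple) and the P5-OC (green). Points are limma estimates and bars are 95% confidence intervals from the fit to all 16 arrays. The 9 osteoclast genes, from *Acp5* to *Atp6v0d2*, all lie left of 0 at P18, from -0.49 to -0.15, and 8 of them right of 0 at P5, and no change was called.

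At P18 all 9 osteoclast genes had lower means in Tg1MDW/1MDW than in WT, with a median log2 change of -0.28, against -0.02 for all probesets. None was called in the fit to all arrays. For 7 of the 9, all Tg1MDW/1MDW arrays lay below all WT arrays, a pattern seen in 13.6% of all probesets with 3 arrays against 3. These genes were measured on the same 6 arrays and are not independent of each other. Of all 33 genes, 12 had Tg1MDW/1MDW arrays that were all lower and 5 had arrays that were all higher, where 14.0% of all probesets were all higher.

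*Oscar*, an activating immune receptor of osteoclasts, had 5.85, 6.11 and 5.71 in P18 Tg1MDW/1MDW, against 6.13, 6.31 and 6.36 in P18 WT. At P5 it had 5.68, 5.75, 5.60, 5.54 and 5.86 in Tg1MDW/1MDW, against 5.83, 5.34, 5.87, 5.39 and 5.43 in WT. The genotypes were narrowly apart at P18 and overlapped at P5. Its change of -0.38 at P18 (standard error 0.15, 95% confidence interval -0.69 to -0.06) had the smallest adjusted p of the 33 at that age, 0.46 from limma. *Calcr*, the receptor through which calcitonin halts resorption, had 5.72, 5.40 and 5.46 in P18 Tg1MDW/1MDW, against 5.86, 5.68 and 5.90 in P18 WT, and these overlapped. At P5 it had 5.17, 5.01, 5.19, 5.09 and 4.90 in Tg1MDW/1MDW, against 5.10, 4.88, 5.04, 5.04 and 4.60 in WT. The change was -0.28 at P18 (limma adjusted p = 0.55) and 0.14 at P5 (limma adjusted p = 0.48).

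*Hapln1*, the link protein that fastens aggrecan to hyaluronan, went the other way at P18. It had 7.88, 7.75 and 7.76 in P18 Tg1MDW/1MDW, against 7.35, 7.30 and 7.34 in P18 WT. At P5 it had 7.0, 6.73, 6.59, 6.22 and 5.97 in Tg1MDW/1MDW, against 6.87, 6.93, 6.50, 6.95 and 7.08 in WT. The P18 arrays were well apart and the P5 arrays overlapped. The change was 0.47 at P18 (standard error 0.20, limma adjusted p = 0.52) and -0.37 at P5 (standard error 0.16, limma adjusted p = 0.28).

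The spread within groups was unlike at the 2 ages, which bears on these tests, since the fit gives all groups a single variance per gene. The median SD of the 33 genes was 0.06 in P18 Tg1MDW/1MDW and 0.06 in P18 WT, but 0.39 in P5 Tg1MDW/1MDW and 0.35 in P5 WT. Over all probesets it was 0.09 in both groups at P18, and 0.17 in P5 Tg1MDW/1MDW and 0.18 in P5 WT. When the 6 P18 arrays were fitted alone, 3 of the 33 genes were called between genotypes, where 1.37% of all probesets were. *Mmp9* had a change of -0.49 (95% confidence interval -0.62 to -0.36, limma adjusted p = 0.026), *Acp5* of -0.39 (-0.52 to -0.26, limma adjusted p = 0.043) and *Hapln1* of 0.47 (0.32 to 0.61, limma adjusted p = 0.039). The *Mmp9* signals were 9.83, 9.83 and 9.92 in P18 Tg1MDW/1MDW, against 10.32, 10.34 and 10.38 in P18 WT, and those of *Acp5* were 10.60 to 10.67 in P18 Tg1MDW/1MDW, against 10.98 to 11.07 in P18 WT.

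Markers of other tissues also differed between the genotypes at P18. Of 12 skeletal muscle markers, 10 were called higher in Tg1MDW/1MDW, with means of 8.41 to 8.44 in Tg1MDW/1MDW and 6.47 to 6.51 in WT. Of 8 cerebellar granule neuron markers, 5 were called lower, with means of 6.22 to 6.24 in Tg1MDW/1MDW and 6.99 to 7.04 in WT. None of the 6 erythroid markers was called, although all 6 changes were negative, with means of 10.45 to 10.48 in Tg1MDW/1MDW and 10.65 to 10.72 in WT. None of the 10 neutrophil and marrow myeloid markers was called, and 9 of the changes were negative, with means of 10.17 to 10.20 in Tg1MDW/1MDW, all below the 10.27 to 10.32 of WT. None of 9 macrophage markers was called either, with means of 8.31 to 8.35 in Tg1MDW/1MDW and 8.37 to 8.44 in WT. Of 8 otic mesenchyme markers all had positive changes and 1, *Tbx15*, was called (1.17, limma adjusted p = 0.0022). Their part in the P18 values of the osteoclast and cartilage genes was not tested.

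At P5, 8 of the 9 osteoclast genes had higher means in Tg1MDW/1MDW, with a median log2 change of 0.24, against -0.01 for all probesets. This median was 0.13 without P5 Tg1MDW/1MDW replicate 3 and 0.31 without P5 WT replicate 1, and it was 0.10 in replicates 1 and 2 alone. In replicates 3 to 5 alone it was 0.38, but there genotype cannot be told apart from the signal of Y-linked genes, given below. Blood and marrow markers had changes of the same sign, none of them called. Of the 10 neutrophil and marrow myeloid markers 8 were positive, with a median of 0.24 and array means of 4.93 to 5.36 in Tg1MDW/1MDW and 4.74 to 5.02 in WT, and of the 6 erythroid markers 5 were positive, with a median of 0.19 and means of 5.88 to 6.43 in Tg1MDW/1MDW and 5.84 to 6.18 in WT. The part of these cells in the P5 values of the osteoclast genes was not tested. The lower quartiles of the P5 arrays were 4.82 to 5.05, and near them background can hold a signal up. The myeloid means lay near them, as did the P5 signals of *Dcstamp* (4.43 to 5.13) and *Calcr* (4.60 to 5.19). So did part of those of *Atp6v0d2* (4.16 to 5.94 in WT). Of the 18 further genes of osteoclasts and their signals, 7 had positive and 11 negative changes at P5, with a median of -0.06. No gene of the 33 had its Tg1MDW/1MDW arrays all above or all below its WT arrays at this age, which 0.383% and 1.29% of all probesets had. The 8.37, 8.53, 8.72, 8.09 and 7.80 of *Acp5* in P5 Tg1MDW/1MDW overlapped with the 8.79, 7.12, 7.56, 6.87 and 6.72 of P5 WT through replicate 1 of WT alone. The difference of 0.89 (standard error 0.30, 95% confidence interval 0.26 to 1.52) had an adjusted p of 0.2 from limma. Without P5 WT replicate 1, *Acp5* was called at 1.23 (limma adjusted p = 0.0026). That array was the only P5 WT array with a low signal of Y-linked genes, given below. This call can therefore hardly be told apart from that level.

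*Ocstamp*, a membrane protein needed for the fusion of osteoclast precursors, had 6.85, 6.55, 6.46, 6.68 and 6.48 in P5 Tg1MDW/1MDW, against 6.70, 6.11, 6.43, 6.12 and 6.11 in P5 WT. At P18 it had 6.71, 6.91 and 6.72 in Tg1MDW/1MDW, against 7.11, 7.04 and 7.15 in WT. At P5 only WT replicate 1 reached into the Tg1MDW/1MDW range, and at P18 the order of the genotypes was the reverse. The change was 0.31 at P5 (limma adjusted p = 0.23) and -0.32 at P18 (limma adjusted p = 0.56). Without P5 WT replicate 1 the P5 change was called at 0.41 (limma adjusted p = 0.047), with the same limit as for *Acp5*.

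*Ihh* (Indian hedgehog), the signal by which prehypertrophic chondrocytes pace the growth plate, had 6.88, 6.59, 6.31, 6.81 and 6.85 in P5 Tg1MDW/1MDW, against 6.80, 6.37, 6.17, 6.49 and 5.84 in P5 WT. At P18 it had 6.63, 6.57 and 6.64 in Tg1MDW/1MDW, against 6.96, 6.73 and 6.71 in WT. The groups overlapped at P5 and lay just apart at P18. The change was 0.35 at P5 (95% confidence interval 0.03 to 0.68, limma adjusted p = 0.27) and -0.19 at P18 (limma adjusted p = 0.88).

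P5 WT replicate 1 also stood apart from the other P5 WT arrays in other ways. It had the highest *Ctsk* (9.69) of the P5 arrays and the highest *Atp6v0d2* (5.94) and *Mmp9* (8.01) of the WT ones. P5 Tg1MDW/1MDW replicate 3 had nearly the same *Atp6v0d2* (5.93) and a higher *Mmp9* (8.34). The mean of P5 WT replicate 1 over 9 macrophage markers was 7.72, against 7.23 to 7.49 on the P5 Tg1MDW/1MDW arrays and 7.35 to 7.56 on the other P5 WT arrays. Averaged over *Eif2s3y*, *Kdm5d* and *Uty*, which lie on the Y chromosome, the signal was 3.95 on this array and 8.61 to 8.96 on the other 4 P5 WT arrays, whereas in P5 Tg1MDW/1MDW it was 8.86 on replicate 1 and 3.90 to 4.06 on the other 4. Genotype and this level are therefore nearly confounded at P5. Without P5 WT replicate 1, all remaining P5 WT arrays have the high level, which Tg1MDW/1MDW replicate 1 alone shares. Genotype effects called without that WT array can hardly be told apart from the level. At P18 the level also separated the genotypes, at 7.65 to 7.66 in Tg1MDW/1MDW and 7.22 to 7.34 in WT, so that within the P18 arrays they cannot be told apart. All P18 arrays lay between the low and the high level of the P5 arrays. Whether a P18 array holds RNA of both sexes was not tested. With the level as a covariate, at a single slope over all 16 arrays, the median P18 change of the 9 osteoclast genes was -0.28, with all 9 negative. The P5 arrays, at 3.90 to 8.96, mainly set that slope. The P18 levels differ little, so this fit could hardly move the P18 changes and decides nothing about them. With the Y-linked mean as a covariate the P5 change was 0.40 for *Acp5* (limma adjusted p = 0.79) and 0.25 for *Ocstamp* (limma adjusted p = 0.76), and the median of the 9 osteoclast genes was 0.04, with 6 positive and 3 negative.

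The difference between the genotype effect at P18 and that at P5 was called for none of the 33 genes, where 0.596% of all probesets were called. It reached an unadjusted p under 0.05 for 8 of the 33, where 14.3% of all probesets did. The smallest adjusted p-values from limma were those of *Ocstamp* (-0.63, 95% confidence interval -1.02 to -0.23, adjusted p = 0.16), *Hapln1* (0.83, 0.28 to 1.38, adjusted p = 0.18) and *Acp5* (-1.28, -2.31 to -0.24, adjusted p = 0.26). All 9 osteoclast genes had a negative difference, with a median of -0.49 against 0.00 for all probesets. So had 9 of the 10 neutrophil and marrow myeloid markers (median -0.38) and 5 of the 6 erythroid markers (median -0.43), and their part in the osteoclast values was not tested. Without P5 WT replicate 1, *Acp5* (-1.62, limma adjusted p = 0.012) and *Ocstamp* (-0.73, limma adjusted p = 0.036) were called. These calls, too, can hardly be told apart from the Y-linked level.

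Of the further osteoblast, osteoclast and cartilage lists, no gene was called between genotypes at either age or in the difference between the ages. Of the 18 further osteoclast genes, 13 had negative changes at P18 (median -0.09) and 11 at P5 (median -0.06). *Slc9b2* had a change of -0.28 at P18 (limma adjusted p = 0.57) and 0.38 at P5 (limma adjusted p = 0.12). The gene nearest to the threshold was *Prg4*, with a change of -0.68 at P18 (standard error 0.14, limma adjusted p = 0.055).

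For a part of the 33 genes, the large spread at P5 followed the replicate numbers. On all 4 arrays of replicates 1 and 2, of both genotypes, 11 of the 33 genes were higher than on all 6 arrays of replicates 3 to 5, and 1, *Matn1*, was lower, where 2.18% of all probesets were higher in this way and 2.74% lower. The other 21 genes overlapped between these sets, all 9 osteoclast genes among them, some with a large spread too (*Acp5* SD 0.83 in P5 WT). The labels do not say what sets these replicates apart, and the split was known from earlier results of these data, so it is described without a test.

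**Figure D4:**
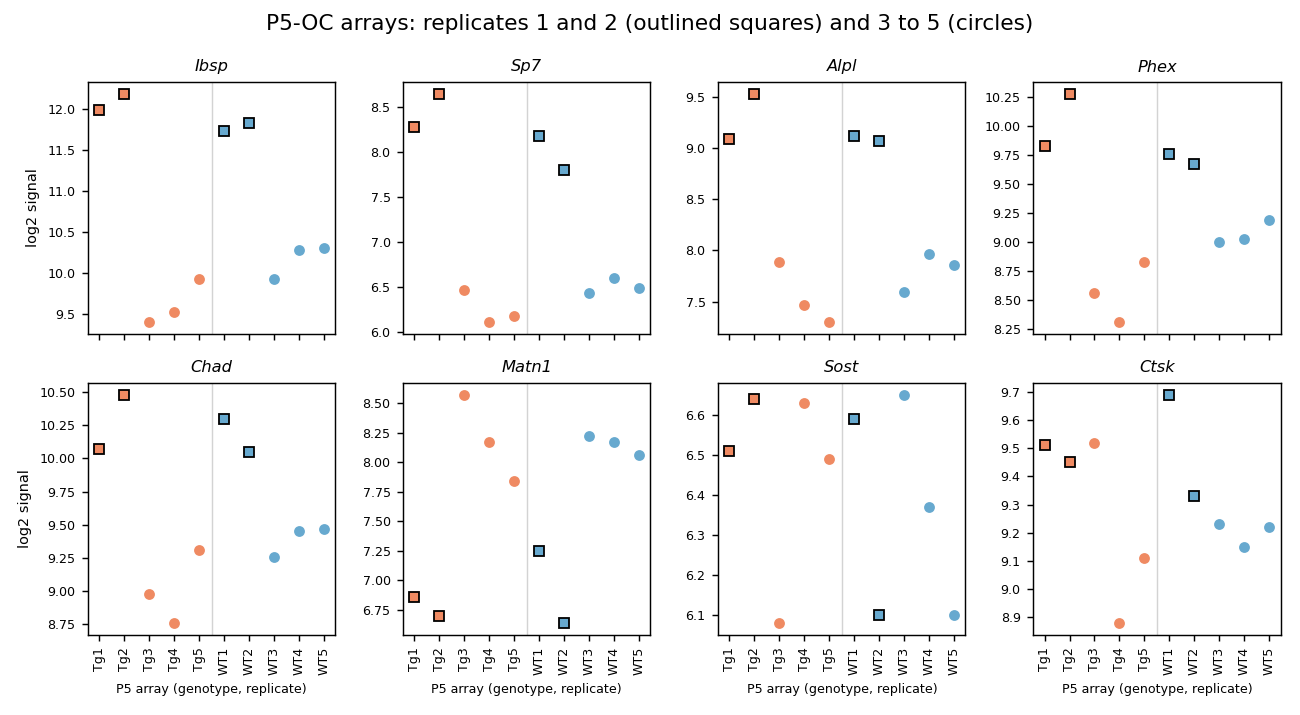
Log2 signal of 8 skeletal genes on the 10 P5-OC arrays, Tg1MDW/1MDW replicates 1 to 5 on the left of each panel and WT replicates 1 to 5 on the right. Outlined squares are replicates 1 and 2 and circles are replicates 3 to 5. For *Ibsp*, *Sp7*, *Alpl*, *Phex* and *Chad* the squares lie above all circles, for *Matn1* they lie below, and for *Sost* and *Ctsk* they overlap.

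*Ibsp* showed the widest split. In Tg1MDW/1MDW it had 11.99 and 12.19 in replicates 1 and 2 and 9.40, 9.52 and 9.93 in the others. In WT it had 11.74 and 11.83 in replicates 1 and 2 and 9.93, 10.28 and 10.31 in the others. The lowest of the first lay 1.43 above the highest of the second, and the first came close to the 12.41 to 12.51 of the P18 arrays. *Sp7* had 8.28 and 8.65 in Tg1MDW/1MDW and 8.18 and 7.80 in WT for replicates 1 and 2, against 6.11 to 6.47 in Tg1MDW/1MDW and 6.44 to 6.60 in WT for the others. *Alpl* had a gap of 1.10 between the sets, *Dlx5* of 0.66, *Chad* (chondroadherin) of 0.58, *Pth1r* of 0.52, *Acan* of 0.51, *Phex* of 0.48, *Omd* of 0.45, *Ucma* of 0.29 and *Ogn* of 0.19. *Matn1* had 6.64 to 7.25 in replicates 1 and 2 and 7.84 to 8.57 in the others, a gap of 0.59 the other way.

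By role, the split took 3 of 6 bone matrix genes, 2 of 3 transcription factors, 2 of 3 enzymes and osteocyte products, 4 of 8 cartilage matrix genes (*Matn1* among them) and 1 of 4 regulators, but 0 of 9 osteoclast genes. *Sost* and *Mepe* overlapped as well. Of the 16 further osteoblast and mineral genes, 8 were higher in replicates 1 and 2, as were 1 of 18 further osteoclast genes and 4 of 8 otic mesenchyme markers. Of 10 supporting cell and cochlear epithelium markers, 4 were lower and 1 higher, with means of 9.90 to 10.04 in replicates 1 and 2 and 10.18 to 10.33 in the others. The otic mesenchyme means were 11.00 to 11.07 in replicates 1 and 2 and 10.55 to 10.72 in the others. Their part in the split of the skeletal genes was not tested.

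The split widened the error of the bone genes in the P5 genotype comparison. With it as a factor for the P5 arrays, the standard error of the genotype change of *Ibsp* was 0.15 in place of 0.53, and that of *Sp7* was 0.13 in place of 0.48. *Acan* was then called lower in Tg1MDW/1MDW, at -0.30 (standard error 0.06, limma adjusted p = 0.042). Its signals in replicates 1 and 2 were 8.74 and 8.74 in Tg1MDW/1MDW, against 9.05 and 8.89 in WT, and in the other replicates 7.90, 7.83 and 7.70 in Tg1MDW/1MDW, against 8.06, 8.23 and 8.18 in WT. Within both sets the Tg1MDW/1MDW arrays lay below the WT arrays. The call rests in part on replicates 3 to 5, where any genotype change cannot be told apart from the Y-linked level. That level was 3.90 to 4.06 there in Tg1MDW/1MDW and 8.61 to 8.82 in WT. *Dmp1* had changes of -0.36 in replicates 1 and 2, -0.47 in replicates 3 to 5, and -0.42 with the factor (limma adjusted p = 0.1). For *Acp5* the changes were 0.49 in replicates 1 and 2 and 1.15 in replicates 3 to 5, and for *Ibsp* they were 0.30 in replicates 1 and 2 and -0.56 in replicates 3 to 5.

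The split also reaches the comparison of the ages. With only replicates 1 and 2 at P5, 11 genes were called higher at P18 and 1 lower in Tg1MDW/1MDW, and 14 higher and 3 lower in WT. With only replicates 3 to 5, 17 were called higher and 2 lower in Tg1MDW/1MDW, and 18 higher and 2 lower in WT. The fall of *Matn1* in Tg1MDW/1MDW was 0.81 on the first choice and below 2-fold, and the *Dlx5* change in WT was -1.04 and called.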

How the data were processed

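The authors deposited normalized log2 signals of 34760 probesets on 16 MoGene 1.0 arrays, between 2.09 and 13.72. The submitters' processing notes name limma; the background correction, normalization and summary of probes are not given in the sources used here. No further normalization was applied. The platform table gives 1 gene symbol for 21640 probesets and several for 1321.

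A mean per group was fitted to all 16 arrays with limma 3.58.1 (lmFit, eBayes) under R 4.3.3, with 12 degrees of freedom in the residuals and 3.23 in the prior. Tests were two-sided, and p-values of each comparison received the Benjamini-Hochberg adjustment across every probeset. The fit was tested on simulated data. The members, gene lists, comparisons and alternatives were chosen with earlier results of these data known. Every array's value is given for the 3 members with the smallest adjusted p in each genotype comparison and for the 4 largest rises and 4 largest falls from P5 to P18 in WT, and up to 4 genes of a further list by smallest adjusted p. Other values by array, and *Tbx15*, were chosen after they were seen. Deviations of arrays with the same replicate number correlated at 0.00 to 0.07 at P18. At P5 they correlated at 0.29 and 0.36 for replicates 1 and 2, and at -0.22 to 0.20 for the others. The study calls the WT mice littermates and names a block design, but does not say that equal numbers mark shared litters. The numbers were not used as pairs in the main fit, and a replicate block was run as an alternative. The number of arrays limits the precision. Upstream and miRNA sequences came from RefSeq tables (GRCm38.p6). Plots were drawn with matplotlib 3.10.9 under Python 3.11.15.

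Alternatives were a replicate block, the split of P5 replicates as a factor, separate fits per age or genotype, omission of the dimmest 50% of probesets, named probesets only, repeated quantile normalization, centring on medians, another variance model, array weights, the Y-linked level as a covariate, a 1.5-fold limit, each array left out in turn, and, chosen after the data were seen, each set of P5 replicates alone.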

Additional observations from a re-analysis of the deposited data

Results flagged for a closer look

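In the groups of 5 arrays at P5, 66 sets of values of the skeletal genes were searched for a single array far from the other 4, by a test that flags about 5% of groups by chance, and 3 were found. *Mmp9* was 8.01 on P5 WT replicate 1 and 6.88 to 6.99 on the other P5 WT arrays. *Mepe* was 3.86 on P5 Tg1MDW/1MDW replicate 3, and 4.13 to 4.24 on the other arrays of that group. *Sost* was 6.08 on the same array and 6.49 to 6.64 on the others.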

How the results depend on the processing

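Between genotypes, the count of 0 called genes became 3 at P18 in separate fits. At P5 it became 1 with the split of replicates as a factor (*Acan*), 1 with array weights (*Acp5*), 1 with replicates 3 to 5 alone (*Dmp1*, chosen after the data were seen), and 0 to 2 when arrays were left out singly. Within replicates 3 to 5 genotype cannot be told apart from the Y-linked level. The difference between the ages gave 3 with array weights (*Acp5*, *Ocstamp* and *Hapln1*) and 0 to 2 when arrays were left out. The cause was not tested. In both cases the 2 were *Acp5* and *Ocstamp*, without P5 WT replicate 1, the only P5 WT array with a low Y-linked level. Leaving out arrays gave 0 at P18, and 17 to 19 calls for P18 minus P5 in each genotype. The *Dlx5* change in Tg1MDW/1MDW reversed to 0.06 with arrays centred on medians and to 0.26 with P5 replicates 3 to 5 alone. With the replicate block, 0 genes were called between genotypes, and 18 in Tg1MDW/1MDW and 17 in WT between the ages. The mean of a gene's probesets was not run, since each member had 1 probeset. There were 3 to 5 arrays a group, no statement of animals, and a single variance per gene in the fit to all arrays. In that fit small changes of many of these genes were not detectable, and signals near background may understate changes.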
